A study of Homo sapiens with 12 samples.

Results

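The genes described here carry the tumour necrosis factor (TNF) signal from the cell surface to the kinases that release NF-kB. They are the 2 TNF receptors TNFRSF1A and TNFRSF1B, the adaptors TRADD, RIPK1 and TRAF2, the kinase MAP3K7 with its partner TAB2, and the IKK subunits CHUK, IKBKB and IKBKG. Each was found by its symbol in the table of loci, and where several loci carried a symbol the one with the highest mean level was used. This gave 10 loci of the 38272 in the table, and 10 of the 10 passed the filter on low values that left 32866 loci for testing.

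RNA was sequenced from K562, a cell line of chronic myeloid leukaemia, in 12 libraries, with 3 labelled biological replicates in each of 4 groups. Cells of the TNFSG group were transfected with the siRNA Si623 and the GapmeR Gap01 against a long non-coding RNA and then given TNF at 20 ng/mL for 6 hours. Cells of the TNF group had the mock transfection with SiCt and GapCt before the same TNF treatment. The SG group had Si623 and Gap01 without TNF, and the control group had SiCt and GapCt without TNF. A GapmeR is a DNA-like antisense strand through which RNase H cuts a bound RNA. Every group was thus transfected, no untransfected cells were analysed here, and the effects of siRNA and GapmeR cannot be told apart because they were always given together. All results come from a single cell line, and nothing in the labels says whether the replicates were separate cultures, so the p-values measure the spread between these libraries.

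Trimeric TNF binds TNFRSF1A, whose death domain recruits TRADD and RIPK1, and TRADD brings in TRAF2 and the ubiquitin ligases bound to it. Ubiquitin chains built there hold TAB2 with its kinase MAP3K7 (TAK1) beside the IKK complex, in which IKBKG (NEMO) is the regulatory subunit and IKBKB and CHUK are the catalytic kinases. Activated IKK phosphorylates IkB proteins, which are then degraded, and NF-kB enters the nucleus. TNFRSF1B has no death domain and binds TRAF2 directly.

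Levels are in FPKM, fragments divided by locus length and by the library's mapped fragments, so they are set per length and can be compared between genes. Differences were tested with limma on log2(FPKM + 1) over all 12 libraries. The p-values are two-sided and adjusted by the Benjamini-Hochberg method over the 32866 loci, with a threshold of 0.05. Besides the pairwise comparisons, TNF treatment was tested as an average over both transfections and the targeted transfection as an average over both treatments, each with 6 libraries against 6. Changes of a level in bulk RNA do not separate fewer expressing cells from less RNA per cell.

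The relative depths of the libraries, read from the steps of low values, lay between 0.793 and 1.21 of control replicate 1, and the total depth is unknown. FPKM sums, which are already set to the mapped fragments and so do not show size, ran from 925955 to 1083476. The 11 erythroid markers of K562 matched 10 loci, since HBG2 and HBE1 share one, and each averaged at least 1 FPKM. Their sum, mostly that shared globin locus and HBZ, was 2130 to 4210 FPKM in TNFSG, 2230 to 5130 in TNF, 2350 to 4530 in SG and 2360 to 5400 in control libraries. Single markers within it differed with TNF. NFE2 had at most 51.1 FPKM in TNFSG, against at least 92.9 in SG, and averaged 50.0 in TNF, against 99.1 in control, and KLF1 averaged 54.5 in TNFSG, against 87.3 in SG, and 63.2 in TNF, against 93.9 in control. Neither gene's TNF-treated and untreated libraries overlapped, and their part in the results on TNF was not tested. Fibroblast markers summed higher in most TNF-treated libraries than in untreated ones. Of that list 3 of 6 matched a locus (COL1A1, COL1A2 and DCN), each averaged at least 1 FPKM, and their sum was 65.2 to 444 FPKM in TNFSG and 55.1 to 1180 in TNF libraries, against 21.3 to 45.3 in SG and 23.9 to 56.3 in control libraries. COL1A2 had group means of 138 in TNFSG, 409 in TNF, 4.43 in SG and 1.13 FPKM in control, with single TNF-treated libraries from 2.60 to 1100 FPKM. DCN averaged 58.2 in TNFSG, against 27.3 in SG, and 51.1 in TNF, against 30.6 in control, and held most of the sum in SG and control. Their part in the results on TNF treatment was not tested. Of the epithelial list 4 of 6 matched a locus, led by EPCAM and KRT19, and their sum was 164 to 174 FPKM in TNFSG and 167 to 209 in TNF, against 180 to 222 in SG and 195 to 240 in control libraries, and its part was not tested either. The sums of the markers of T and B cells (3 of 6 matched), monocytes and granulocytes (3 of 6), and endothelial cells (2 of 5) overlapped between all groups. No matched marker was at 0 in every library. Single low markers within these sums still separated. CD14 had 1.32 to 3.44 FPKM in SG, against 6.66 to 9.26 in control. ITGAM went the other way, with 1.33 to 1.91 in SG, against 0.635 to 1.17 in control. Their part was not tested. The labels do not tie the transfection's target to a gene name of the table. The locus named MIR146A, which lies near the gene PTTG1, had 7.77, 4.51 and 4.03 FPKM in TNFSG, against 28.1, 25.6 and 21.2 in TNF, and 0, 0.0566 and 0.0630 FPKM in SG, against 0.360, 0.569 and 0.159 in control.

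IKBKB was the single member that rose with TNF, and it did so after both transfections. The locus of CHUK, the other catalytic IKK subunit, is shared with ERLIN1. That locus did not pass the test, and its level was lower in TNF than in control libraries. TNFRSF1B was higher after the targeted transfection when averaged over both treatments, and its levels in TNF-treated libraries lay below those in untreated ones within each transfection. The other members differed by less than the test could separate from the spread between libraries. In TNF against control 1 of the 10 members passed the threshold, beside 1.45% of all loci tested, and in TNFSG against SG 1 of 10 passed, beside 1.64% of all loci. Averaged over both transfections, TNF changed 1 of 10 members (background 4.38%), and averaged over both treatments the targeted transfection changed 1 of 10 (background 1.11%). No member passed in SG against control (background 0.17%), where 2 members had an unadjusted limma p under 0.05 beside 9.86% of all loci. None passed in TNFSG against TNF (background 0.128%), where 1 had an unadjusted p under 0.05 beside 9.11% of all loci, or in the interaction of both treatments (background 0.00913%), where it was 1 beside 3.75%.

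**Figure D1:**
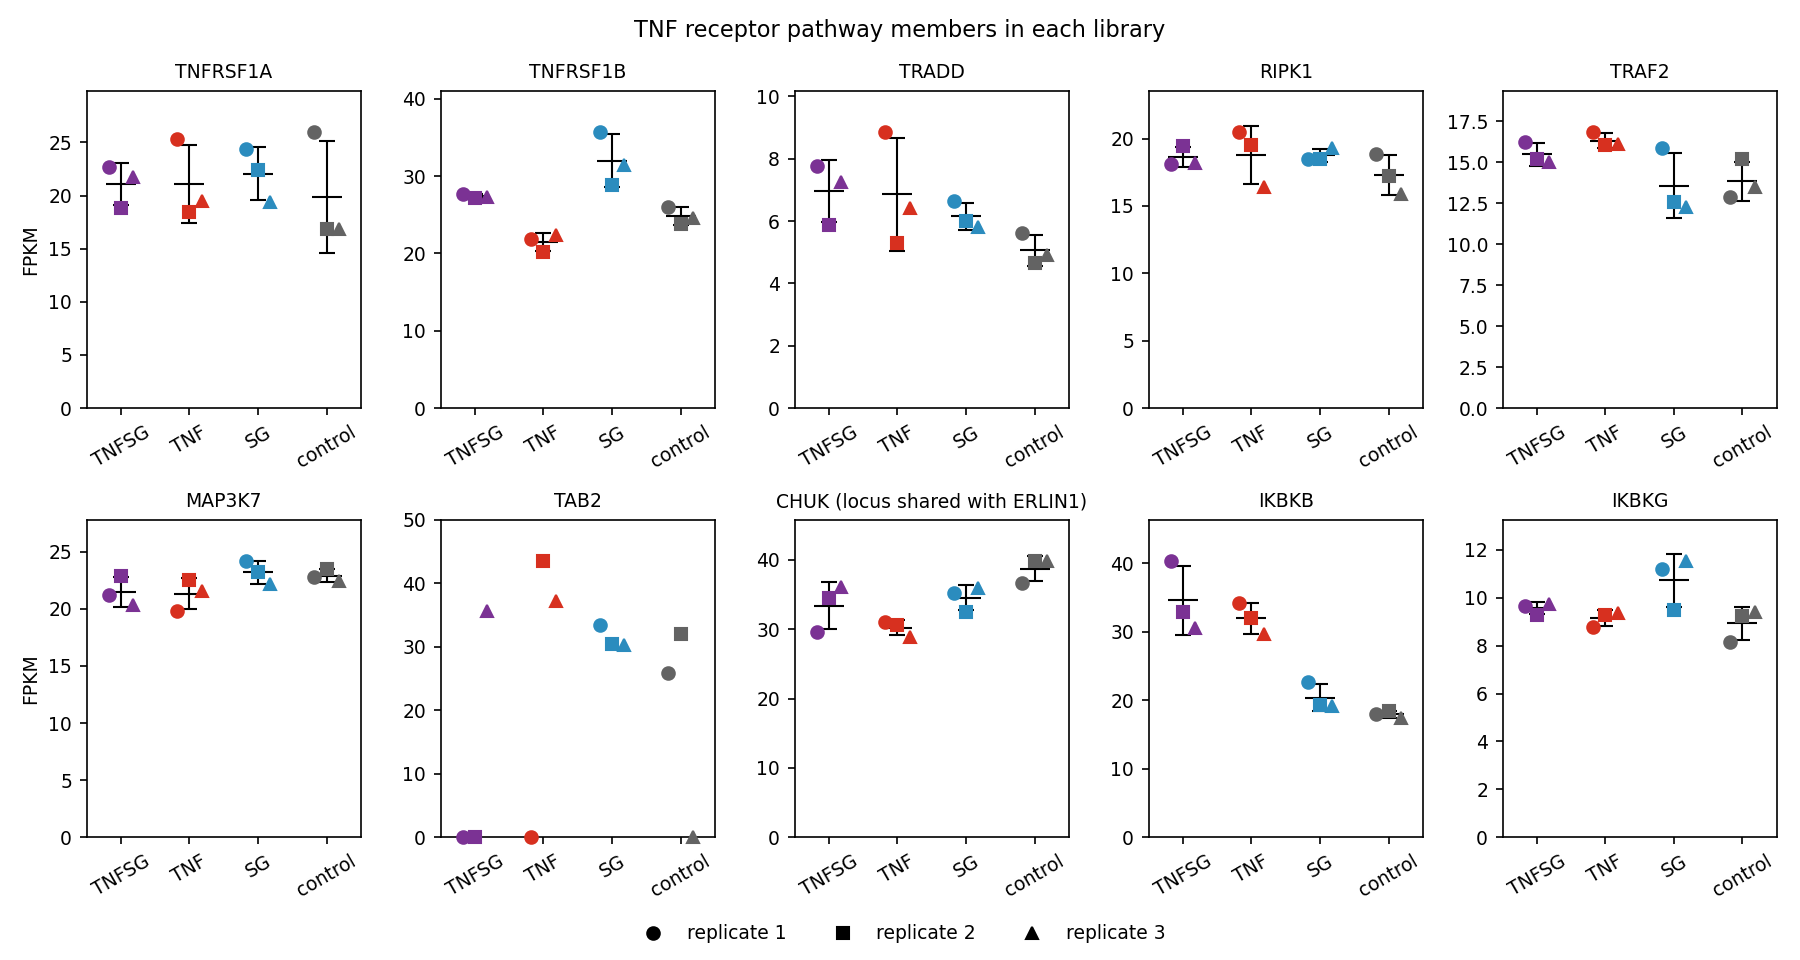
Level of each member in FPKM in every library (points, with the group mean and SD as bars, n = 3, except for TAB2), with groups from left to right TNFSG, TNF, SG and control and 1 panel per gene. IKBKB lies at 29.7 FPKM or more in every TNF-treated library and at 22.6 or less in every untreated one, and TAB2 is listed at 0 in 4 libraries.

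TNFRSF1A, the receptor with a death domain, lies at chr12:6328757-6342114 on the minus strand of hg38. It had 22.7, 18.8 and 21.8 FPKM in TNFSG, 25.3, 18.5 and 19.5 in TNF, 24.4, 22.4 and 19.4 in SG and 26.0, 16.9 and 16.9 FPKM in control libraries. The groups overlapped in every comparison. The change with TNF, averaged over both transfections, was 0.02 ± 0.13 on the log2 scale (SE, 95% interval -0.27 to 0.30, limma adjusted p = 0.971), so a change within these bounds was not detectable with this spread. With the targeted transfection it was 0.09 ± 0.13 (SE, limma adjusted p = 0.813).

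TNFRSF1B had 27.7, 27.1 and 27.3 FPKM in TNFSG, against 21.9, 20.2 and 22.4 FPKM in TNF. Without TNF it had 35.7, 28.9 and 31.4 FPKM in SG, against 26.0, 23.8 and 24.6 FPKM in control. All 6 libraries of the targeted transfection lay above all 6 of the mock transfection, a separation seen in 2.1% of all loci. The ratio of group means was 1.27 for TNFSG over TNF and 1.29 for SG over control. Averaged over both treatments, the change was 0.34 ± 0.058 on the log2 scale (SE, 95% interval 0.21 to 0.47, limma adjusted p = 0.0299). Within single comparisons it missed the threshold, with limma adjusted p = 0.203 for SG against control and 0.244 for TNFSG against TNF.

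The TNFRSF1B call was a narrow one. Leaving out 1 library ended it in 8 of 12 fits (any TNFSG library, SG replicate 3, TNF replicate 2 or 3, or control replicate 2 or 3), with limma adjusted p of 0.0656 to 0.0857. Scaling factors moved with the transfection. A median-ratio scaling gave factors of 1.02 to 1.03 in TNFSG, 0.976 to 0.983 in TNF, 1.05 in SG and 0.985 to 0.993 in control libraries, and the median change of all loci with the targeted transfection was 0.09. After that scaling the change of TNFRSF1B was 0.27, with limma adjusted p = 0.0626, and the 6 libraries of each transfection overlapped, although SG still lay above control and TNFSG above TNF.

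With TNF the levels of TNFRSF1B lay lower. Each TNFSG library lay below each SG library, and each TNF library below each control library, with ratios of means of 0.856 and 0.865. The averaged change was -0.21 ± 0.058 on the log2 scale (SE, 95% interval -0.34 to -0.08) and missed the threshold at limma adjusted p = 0.0916. The interaction was -0.01 (95% interval -0.27 to 0.25). The ratio of TNFRSF1A to TNFRSF1B within a library, which no scaling between libraries can alter, was 0.770 ± 0.0669 in TNFSG, 0.981 ± 0.155 in TNF, 0.692 ± 0.0786 in SG and 0.797 ± 0.175 in control (mean ± SD, n = 3).

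TNFRSF1B lies on chromosome 1, at chr1:12167003-12209228 on the plus strand. All gene positions are those of GENCODE release 29. The promoters of the members were searched for the NF-kB consensus decamer by its name, on both strands, from 250 bases before to 50 after each start in RefSeq's table of GRCh38.p14. Of the 10 members 8 matched an entry, and IKBKB and TRADD are named only. The decamer was in 3956 of 35116 windows of that table (11.3%) and in a window of 1 matched member, TAB2, where matches overlapped each other on both strands. For TNFRSF1B, the receptor whose level differed, the 250 bases before the start hold no such match, which says only that these letters are not in this window. NFKBIA, the IkB gene with the largest log2 change with TNF in the pathway lists, is shown beside it because its window holds 1 match, printed in capitals, which reads as the decamer on the opposite strand. The first is chr1:12166741-12166990 on the plus strand and the second chr14:35404750-35404999 on the minus strand, each written 5′ to 3′.
TNFRSF1B: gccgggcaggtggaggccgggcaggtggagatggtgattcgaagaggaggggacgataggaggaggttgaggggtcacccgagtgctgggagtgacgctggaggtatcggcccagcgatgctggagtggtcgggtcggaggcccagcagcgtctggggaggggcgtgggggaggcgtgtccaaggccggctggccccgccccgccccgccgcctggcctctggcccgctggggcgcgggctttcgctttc
NFKBIA: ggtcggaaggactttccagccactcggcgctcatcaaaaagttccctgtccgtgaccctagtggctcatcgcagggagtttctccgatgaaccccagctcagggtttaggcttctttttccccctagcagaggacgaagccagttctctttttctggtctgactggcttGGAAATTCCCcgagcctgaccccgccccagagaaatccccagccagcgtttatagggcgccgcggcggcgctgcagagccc

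Of the adaptors, TRADD (chr16:67154180-67160298, minus strand) docks on the death domain of TNFRSF1A. It had 7.76, 5.86 and 7.27 FPKM in TNFSG, 8.86, 5.30 and 6.41 in TNF, 6.65, 6.00 and 5.80 in SG and 5.61, 4.65 and 4.91 FPKM in control, and had the lowest mean of the members in every group. All SG libraries lay above all control libraries, by 0.24 ± 0.17 on the log2 scale (SE, limma adjusted p = 0.702), but overlapped them after median-ratio scaling, while TNF and control libraries overlapped. The averaged change with TNF was 0.25 ± 0.12 (SE, 95% interval -0.02 to 0.52, limma adjusted p = 0.351).

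TRAF2 (chr9:136881912-136926607, plus strand) is an adaptor used by both receptors. It had 16.3, 15.2 and 14.99 FPKM in TNFSG and 16.9, 16.0 and 16.1 in TNF, against 15.9, 12.6 and 12.3 FPKM in SG and 12.9, 15.2 and 13.5 in control. The TNF libraries lay above all control libraries, whereas TNFSG and SG libraries overlapped through SG replicate 1. The averaged change with TNF was 0.21 ± 0.073 on the log2 scale (SE, limma adjusted p = 0.191), short of the threshold. The ratio of TRAF2 to TRADD within a library was 2.09, 2.60 and 2.06 in TNFSG, 1.90, 3.03 and 2.51 in TNF, 2.39, 2.09 and 2.12 in SG and 2.29, 3.27 and 2.75 in control, with overlap between TNFSG and SG and between TNF and control.

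RIPK1 (chr6:3063991-3115187, plus strand), the kinase that serves as a scaffold at the receptor, was among the most even of the members. It had 18.1, 19.5 and 18.2 FPKM in TNFSG, 20.5, 19.5 and 16.4 in TNF, 18.5, 18.5 and 19.3 in SG and 18.9, 17.2 and 15.9 FPKM in control, and every pair of groups overlapped. Its averaged change with TNF was 0.05 ± 0.066 (SE, 95% interval -0.10 to 0.20), and with the targeted transfection it was 0.05 ± 0.066 (SE, 95% interval -0.10 to 0.20), both on the log2 scale. Larger changes lie outside these intervals.

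MAP3K7 (chr6:90513573-90587045, minus strand) is the kinase that phosphorylates IKK. It had 21.3, 22.9 and 20.3 FPKM in TNFSG, 19.9, 22.5 and 21.6 in TNF, 24.2, 23.2 and 22.2 in SG and 22.8, 23.5 and 22.4 FPKM in control. The groups overlapped in each of the 4 pairwise comparisons. The averaged change with TNF was -0.10 ± 0.051 on the log2 scale (SE, 95% interval -0.22 to 0.01, limma adjusted p = 0.366).

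TAB2 (chr6:149218641-149411613, plus strand), the ubiquitin-binding partner of MAP3K7, was listed at 0 in 4 of the 12 libraries. It had 0, 0 and 35.7 FPKM in TNFSG, 0, 43.5 and 37.3 in TNF, 33.4, 30.5 and 30.4 in SG and 25.9, 32.1 and 0 FPKM in control. The values fall into zeros and a range of 25.9 to 43.5 FPKM with nothing between. A further locus with the same name, at no more than 1.83 FPKM, was listed at 0 in the same 4 libraries. Each library had between 155 and 323 loci listed at 0 whose median over the others was at least 5 FPKM, so a listed 0 is not read here as absence. The treatment of the zeros turned the sign of the estimates. With the zeros used, TNFSG minus SG was -3.29 ± 1.93 and the averaged change with TNF -1.49 ± 1.36 on the log2 scale (SE, limma adjusted p = 0.596 and 0.682). With them treated as missing, which was chosen after the values were seen and leaves 1 TNFSG, 2 TNF, 3 SG and 2 control libraries, they were 0.18 ± 0.17 and 0.32 ± 0.11 (SE, limma adjusted p = 0.786 and 0.231).

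IKBKB encodes IKK-beta, the kinase that phosphorylates IkB in the canonical pathway. It lies on chromosome 8. It had 40.3, 32.9 and 30.6 FPKM in TNFSG, against 22.6, 19.3 and 19.2 FPKM in SG. After the mock transfection it had 34.2, 32.0 and 29.7 FPKM in TNF, against 17.9, 18.5 and 17.4 FPKM in control. No TNF-treated library overlapped an untreated one, a separation of 6 against 6 libraries seen in 3.99% of all loci. The ratio of means was 1.70 for TNFSG over SG and 1.78 for TNF over control.

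The rise of IKBKB was 0.73 ± 0.11 on the log2 scale in TNFSG against SG (SE, limma adjusted p = 0.00857) and 0.80 ± 0.11 in TNF against control (SE, limma adjusted p = 0.00544). Averaged over both transfections it was 0.76 ± 0.077 (SE, 95% interval 0.59 to 0.94, limma adjusted p = 0.000392), and it passed the threshold in all 12 fits that left out 1 library in each of these comparisons. The difference between both rises was -0.07 (95% interval -0.41 to 0.28, limma adjusted p = 1.00), which does not show that they were equal. In TNFSG against SG the call was lost when these 6 libraries were fitted alone (limma adjusted p = 0.106). The targeted transfection itself gave 0.14 ± 0.077 (SE, limma adjusted p = 0.471), and all SG libraries lay above all control libraries, by 0.17 on the log2 scale (limma adjusted p = 0.670), a separation that was gone after median-ratio scaling.

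CHUK encodes IKK-alpha and lies at chr10:100188298-100229619 on the minus strand. Its locus in the table also carries the name of ERLIN1, a gene of the same strand at chr10:100150094-100188334 that overlaps it by 37 bases. The values are those of the merged locus, so both genes cannot be separated here and the values belong to the pair. The locus had 29.6, 34.5 and 36.1 FPKM in TNFSG, against 35.2, 32.6 and 35.9 FPKM in SG. After the mock transfection it had 31.1, 30.7 and 28.9 FPKM in TNF, against 36.6, 39.8 and 39.8 FPKM in control. TNFSG and SG libraries overlapped, while all TNF libraries lay below all control libraries.

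The change of the CHUK locus was -0.35 ± 0.082 on the log2 scale in TNF against control (SE, limma adjusted p = 0.0906) and -0.05 ± 0.082 in TNFSG against SG (SE, limma adjusted p = 0.895). Neither passed. The difference between these changes was 0.30 ± 0.12 (SE, 95% interval 0.03 to 0.56, limma adjusted p = 1.00), so a difference between the transfections is not shown over all loci tested. With a filter that kept loci at 5 FPKM or more, the fall in TNF against control passed (limma adjusted p = 0.0441).

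IKBKG (chrX:154541199-154565046, plus strand) is the regulatory subunit that holds the complex to ubiquitin chains. It had 9.67, 9.26 and 9.73 FPKM in TNFSG, 8.76, 9.28 and 9.37 in TNF, 11.2, 9.47 and 11.5 in SG and 8.15, 9.23 and 9.39 FPKM in control. All SG libraries lay above all control libraries, with a log2 change of 0.24 ± 0.093 (SE, limma adjusted p = 0.441), and overlapped them after median-ratio scaling. The averaged change with TNF was -0.06 ± 0.066 (SE, 95% interval -0.21 to 0.09). Its near-identical pseudogene IKBKGP1 ranged from 0 to 1580 FPKM and was listed at 0 in 3 of the 12 libraries, while IKBKG ran from 8.15 to 11.5 FPKM. How reads were split between the copies was not tested, so the level of IKBKG stays uncertain.

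Separation of libraries was more frequent than calls. In TNFSG against SG 2 of 10 members did not overlap (TNFRSF1B lower, IKBKB higher), beside 18.2% of all loci. In TNF against control 4 of 10 did not (TNFRSF1B and CHUK lower, TRAF2 and IKBKB higher), beside 15.6%. In TNFSG against TNF it was 1 of 10 (TNFRSF1B higher), beside 14.8%, and in SG against control 5 of 10 (TNFRSF1B, TRADD, IKBKB and IKBKG higher, CHUK lower), beside 14.9%. After median-ratio scaling it was 2 of 10 in SG against control (TNFRSF1B higher, CHUK lower), beside 14.4% of all loci, and 2 of 10 in TNFSG against TNF (TNFRSF1B higher, TRAF2 lower), beside 14.4%. The same members as before separated in TNFSG against SG and in TNF against control. SG against control and TNF against control share the control libraries.

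**Figure D2:**
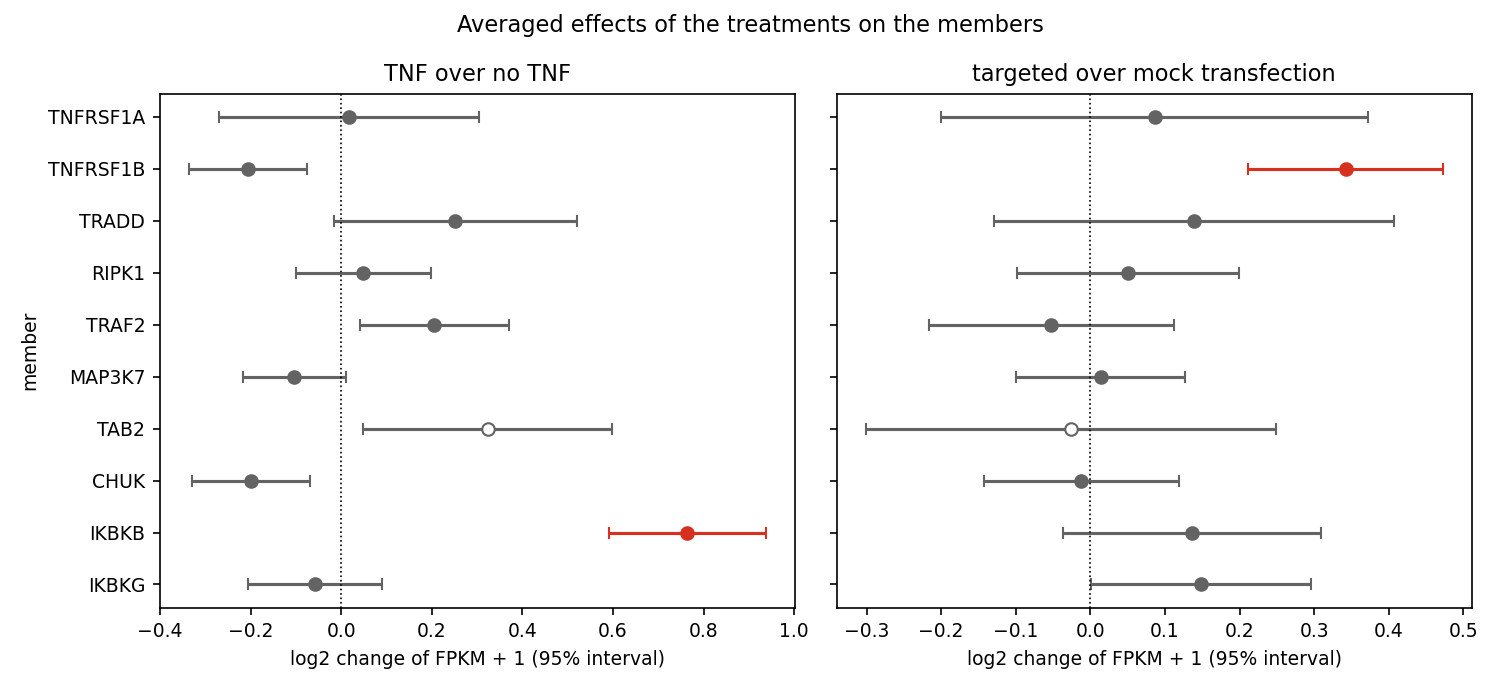
Log2 change of each member with TNF averaged over both transfections and with the targeted transfection averaged over both treatments (points, with 95% intervals, red where the adjusted p is under 0.05), with an open marker for TAB2, whose zeros are treated as missing. The interval of IKBKB with TNF runs from 0.59 to 0.94 and that of TNFRSF1B with the targeted transfection from 0.21 to 0.47.

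The balance of the kinases within a library showed the change in IKBKB on a scale that needs no factor between libraries. The ratio of IKBKB to the CHUK locus was 1.36, 0.953 and 0.846 in TNFSG, against 0.642, 0.591 and 0.533 in SG. It was 1.10, 1.04 and 1.03 in TNF, against 0.490, 0.464 and 0.438 in control. Every TNF-treated library lay above every untreated one, and the highest values without TNF were those of SG. IKBKB and the CHUK locus, with ERLIN1, both enter this ratio, and that locus was lower in TNF than in control libraries. The ratio of IKBKG to the CHUK locus was 0.288 ± 0.0331 in TNFSG, 0.303 ± 0.0210 in TNF, 0.310 ± 0.0164 in SG and 0.230 ± 0.00677 in control (mean ± SD, n = 3), with control below the other groups.

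**Figure D3:**
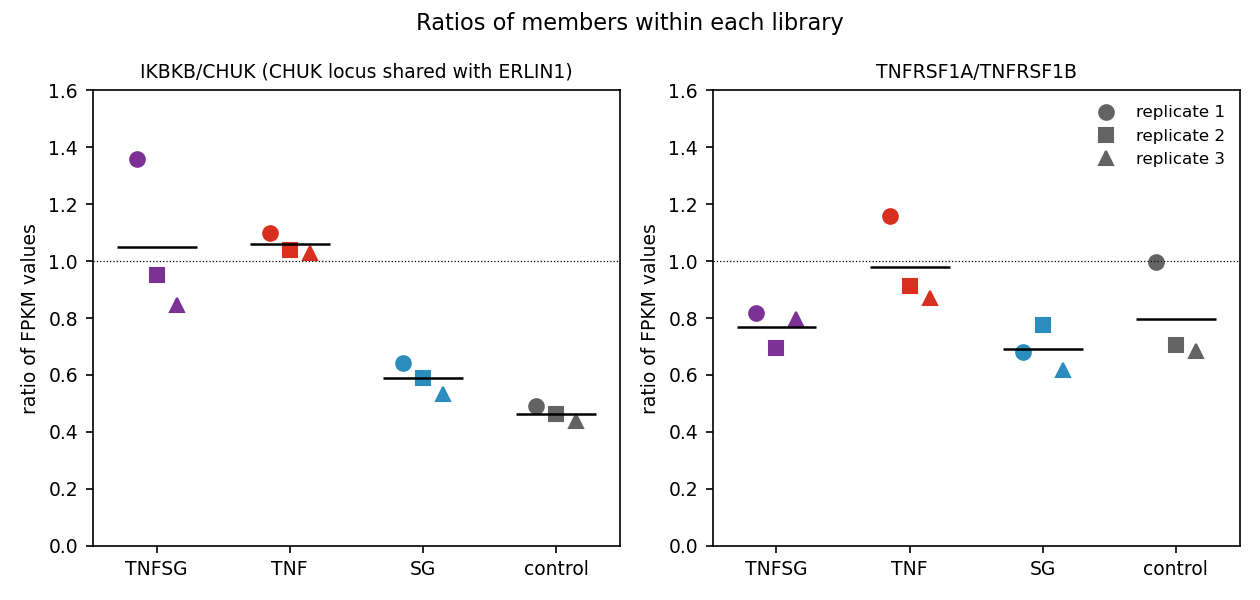
Ratio of the FPKM levels of a pair of members within each library (points), on a linear axis, with the group means as bars and groups from left to right TNFSG, TNF, SG and control, for IKBKB over CHUK and TNFRSF1A over TNFRSF1B. The ratio of IKBKB to the CHUK locus, shared with ERLIN1, averages 1.05 in TNFSG, 1.06 in TNF, 0.589 in SG and 0.464 in control.

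The order of the levels differed between groups. It is given for the 9 members other than TAB2, whose libraries not listed at 0 averaged 35.7 FPKM in TNFSG (1 library), 40.4 in TNF (2 libraries) and 31.4 in SG (3 libraries), with 25.9 and 32.1 FPKM in control. Among the 9, IKBKB stood first in TNFSG, at a mean of 34.6 FPKM, and first in TNF, at 32.0, in both cases overlapping CHUK below it. It was number 5 in SG, at 20.3 FPKM, and number 5 in control, at 17.9, overlapping its neighbours TNFRSF1A and RIPK1 in both groups. The CHUK locus stood first in SG, at 34.6 FPKM, overlapping TNFRSF1B, and first in control, at 38.7, above every library of TNFRSF1B. Its values include ERLIN1, so the rank is that of the pair. At the lower end TRAF2, IKBKG and TRADD followed each other in SG and in control with no overlap between neighbours. These members lay above 60.7% to 88.4% of the loci tested in control libraries.

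The loci whose log2(FPKM + 1) followed IKBKB most closely over the 12 libraries, among 11838 with a single name and a mean of at least 5 FPKM, were AMOTL1 (Pearson r = 0.987), CLIP2 (0.984), TNFRSF4 (0.981), RGS16 (0.980) and TNIP1 (0.980). The libraries fall into TNF-treated and untreated, so these values mostly describe that step. The size of the step differed. AMOTL1 averaged 83.2 FPKM in TNFSG and 78.6 in TNF, against 38.6 in SG and 36.9 in control, while CLIP2 averaged 31.7 FPKM in TNFSG and 27.8 in TNF, against 2.27 in SG and 1.43 in control.

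Around the members stand further genes of the pathway, of which 79 were tested. With TNF averaged over both transfections 32 rose and 2 fell, beside 2.84% and 1.55% of all loci, with a median log2 change of 0.21 beside -0.03 over all loci and -0.02 over the members, TAB2 zeros included. In TNF against control 22 rose (1.18% of all loci) and in TNFSG against SG 25 rose (1.37%), and none fell in either (0.277% of all loci in each). An unadjusted limma p under 0.05 was found for 39 and 37 of the 79, beside 3675 and 3743 of all 32866 loci, in either direction. Of those pathway genes 4 were lower in each comparison. Adjusted p-values in what follows are those of limma for TNF averaged over both transfections.

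Of the ligands and shedding factors 3 of 7 rose and 1 fell. The cells' own TNF transcript averaged 5.71 FPKM in TNFSG, against 0.0216 in SG, and 5.55 in TNF, against 0.0345 in control, with 4 libraries listed at 0 (adjusted p = 4.14e-06). LTB, a membrane-bound ligand of the lymphotoxin receptor, averaged 54.8 in TNFSG, against 0.586 in SG, and 73.4 in TNF, against 0.850 in control (adjusted p = 1.43e-05). LTA averaged 1.09 FPKM in TNFSG and was listed at 0 in SG (adjusted p = 0.0207), and its call was lost in 6 of 12 fits that left out 1 library (any SG library, TNF replicate 2, or control replicate 2 or 3, adjusted p up to 0.0599). ADAM10, a protease that sheds surface proteins, fell by 0.25 on the log2 scale (adjusted p = 0.0237), a call lost in 6 of 12 such fits (TNFSG replicate 2 or 3, any SG library, or control replicate 2, adjusted p up to 0.0678).

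Among the other receptors of the family 5 of 14 rose and 1 fell. TNFRSF8, named after its values were seen, fell by 0.50 on the log2 scale, and its call was lost without TNFSG replicate 1 or 3 or SG replicate 1 (adjusted p up to 0.0567). TNFRSF9, a costimulatory receptor, averaged 29.2 FPKM in TNFSG, against 1.79 in SG, and 23.8 in TNF, against 1.17 in control (adjusted p = 5.47e-07). TNFRSF4, CD40 and TNFRSF10B rose by 3.64, 2.45 and 1.06 on the log2 scale. In single comparisons CD40 passed in TNFSG against SG (limma adjusted p = 0.00577) but not in TNF against control (limma adjusted p = 0.0672). TNFRSF18, also named after its values were seen, rose by 1.30. Its call was lost in 6 of 12 fits that left out 1 library (TNFSG replicate 1 or 2, SG replicate 2 or 3, or control replicate 2 or 3, adjusted p up to 0.0622). Neither TNFRSF1A nor TNFRSF1B was among the receptors that rose.

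Of the other TRAF adaptors 3 of 6 rose. TRAF1 averaged 4.00 FPKM in TNFSG, against 0.154 in SG, and 3.04 in TNF, against 0.0870 in control, TRAF3 rose by 0.87 and TRAF4 by 0.33 on the log2 scale. The call of TRAF4 was lost in 8 of 12 fits that left out 1 library (any TNFSG or SG library, or control replicate 1 or 2, adjusted p up to 0.0691). Of the ubiquitin ligases and deubiquitinases at the receptor 5 of 15 rose. TNFAIP3 (A20), which edits ubiquitin chains on RIPK1, averaged 37.9 FPKM in TNFSG, against 2.32 in SG, and 38.7 in TNF, against 1.83 in control (adjusted p = 1.16e-07). TNIP1, its binding partner, the ubiquitin ligase BIRC3 and the deubiquitinase CYLD rose by 1.44, 3.13 and 1.48 on the log2 scale.

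Of the other kinases and their adaptors 3 of 11 rose. IKBKE, an IKK-related kinase, averaged 28.3 FPKM in TNFSG, against 3.68 in SG, and 20.5 in TNF, against 2.07 in control (adjusted p = 3.05e-07), a log2 change of 2.72. MAP3K8 rose by 1.74 and TANK by 0.38 on the log2 scale. None of 7 genes of the MAP kinase arm passed. An unadjusted limma p under 0.05 was found for 1 of them, beside 5222 of all 32866 loci. Of the death arm 2 of 8 rose. Those were CFLAR, an inhibitor of caspase-8, by 1.04 (adjusted p = 0.00190), and CASP10 by 0.53, a call lost in 9 of 12 fits that left out 1 library (all but those without SG replicate 3, TNF replicate 2 or control replicate 1, adjusted p up to 0.0678). Of the NF-kB and IkB proteins 11 of 11 rose, with a median log2 change of 0.94, although the loci of NFKBIE, NFKBIZ and NFKBID carry the name of another gene too and NFKBID lost its call in 8 of 12 fits that left out 1 library (adjusted p up to 0.0847). NFKBIA, the first IkB to be resynthesised, averaged 139 FPKM in TNFSG and 138 in TNF, against 10.9 in control, with a log2 change of 3.49, and RELB, BCL3 and NFKB1 rose by 3.74, 3.07 and 2.14.

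**Figure D4:**
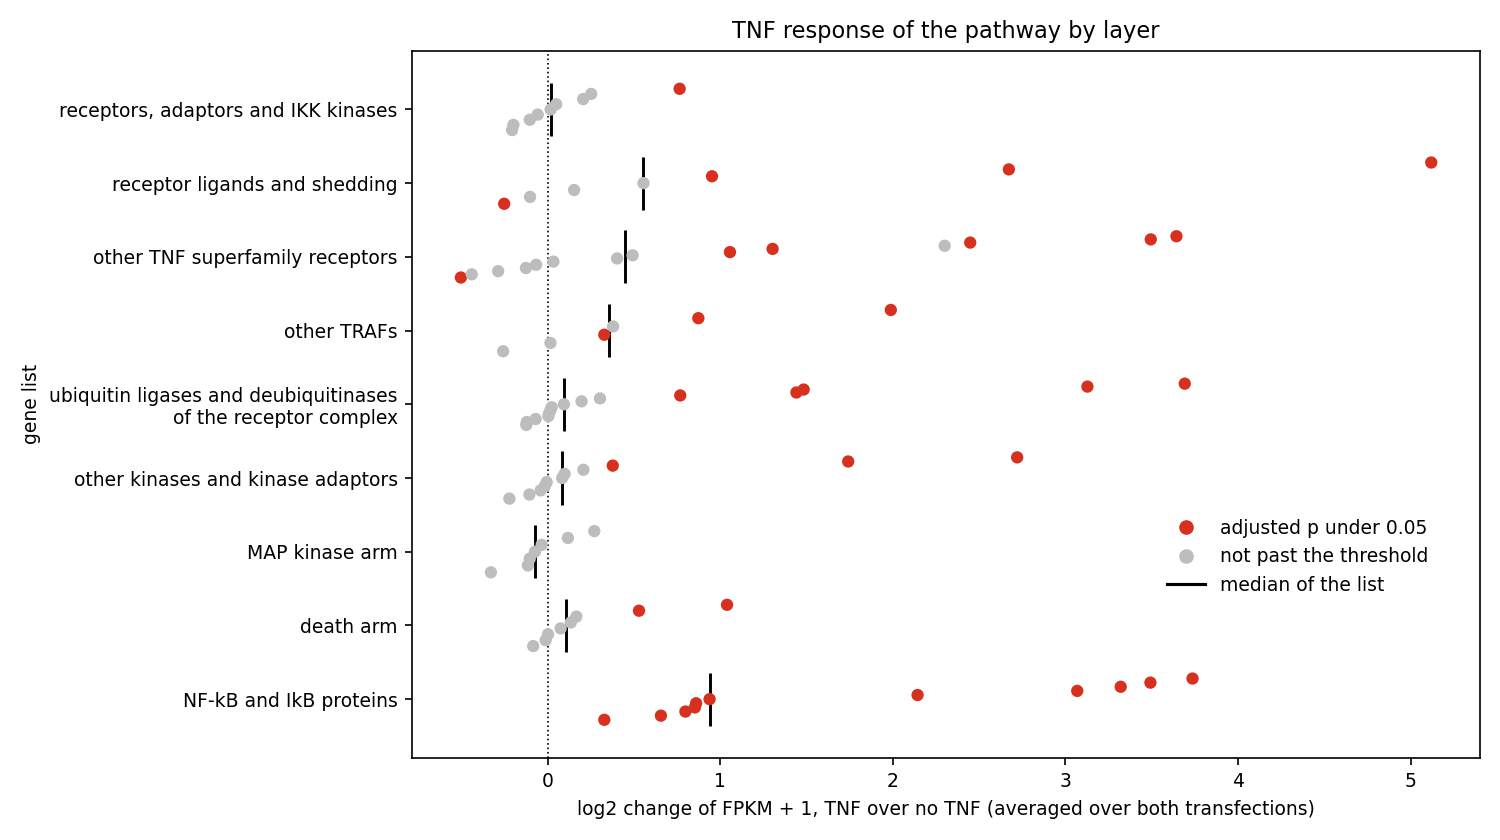
Log2 change with TNF averaged over both transfections for each tested gene of the pathway lists and for the members (points, red where the adjusted p is under 0.05 and grey otherwise, with the median of each list as a bar), with 1 row per list and TAB2 left out. The 11 NF-kB and IkB proteins lie to the right of 0, while IKBKB is the single red point among the members.

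With the targeted transfection averaged over both treatments 2 of the 79 pathway genes rose and 1 fell, beside 0.593% and 0.517% of all loci. IKBKE rose by 0.53 on the log2 scale (limma adjusted p = 0.0340). OTULIN, which removes linear ubiquitin chains, averaged 7.36 FPKM in TNFSG, against 5.40 in TNF, and 8.02 in SG, against 5.53 in control (limma adjusted p = 0.0343). Both calls were lost in 11 of 12 fits that left out 1 library (all but that without TNF replicate 1), with limma adjusted p up to 0.0915 for IKBKE and 0.0936 for OTULIN. UBE2D3, a ubiquitin-conjugating enzyme, averaged 83.9 FPKM in TNFSG, against 101 in TNF, and 76.0 in SG, against 97.5 in control (limma adjusted p = 0.0174). Its call was lost in 6 of 12 fits (TNFSG replicate 1 or 3, SG replicate 3, TNF replicate 2 or 3, or control replicate 2, limma adjusted p up to 0.0637). None of the 79 genes passed in the comparison of SG with control, in that of TNFSG with TNF or in the interaction. An unadjusted limma p under 0.05 was found for 10, 7 and 1 of the 79, beside 9.86%, 9.11% and 3.75% of all loci.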

How the data were processed

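RNA-seq of K562 cells was analysed from 1 deposited table of FPKM values with 12 columns, each matched to a library by its label. Single 50-base reads from an Illumina HiSeq were made from Trizol RNA, per the labels' protocols. Cufflinks, TopHat2 2.0.14, Bowtie2 2.2.9 and the build hg38 are listed, per the submitters' processing notes. The Cufflinks version, annotation and strandedness were not given in the sources used here. FPKM are not counts, so no count test was run.

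The scale of all tests was log2(FPKM + 1). Loci that reached 1 FPKM in 3 or more libraries were fitted with limma 3.58.1 (eBayes with a trend, 1 mean per group) in R 4.3.3, with Benjamini-Hochberg adjustment and a threshold of 0.05. The fit was tested on simulated data. The pseudocount understates changes of low loci. Pathway genes named are at most the 4 of lowest p per list among those past the threshold, with further ones named for a limit. The 5 loci most like IKBKB are given. The members, gene lists and tests were chosen with earlier results of these data known. Alternatives were the replicate number as a block, a pseudocount of 0.1, median-ratio scaling, a filter at 5 FPKM, no filter, no trend, only the groups compared, the sum over loci of a symbol and each library left out. Listed zeros as missing, and the overlap of libraries after median-ratio scaling, were added after seeing the values. Gene positions come from GENCODE release 29 and promoters from RefSeq. Python 3.11.15, numpy 2.4.6, pandas 2.3.3 and matplotlib 3.10.9 were used.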

Additional observations from a re-analysis of the deposited data

Results flagged for a closer look

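A further, low locus named RIPK1, outside the comparisons above, lay higher in every TNF library, at 1.74, 1.74 and 2.25 FPKM (mean 1.91), than in the control libraries, at 1.13, 1.47 and 1.05 FPKM. TNFSG libraries had 0.812, 1.54 and 1.12 FPKM there and did not lie above the SG libraries, at 1.68, 1.36 and 1.48 FPKM.

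A further locus named CHUK lay higher in every SG library, at 2.00, 1.86 and 2.16 FPKM (mean 2.01), than in the control libraries, at 1.597, 1.77 and 1.26 FPKM, while TNFSG and TNF libraries overlapped. Both were noted because a signal outside the main loci separated from control. Libraries did not overlap in 15.6% of all loci tested in TNF against control and in 14.9% in SG against control. Median-ratio factors were 1.05 in SG and 0.985 to 0.993 in control libraries, and neither locus was compared after that scaling. Neither difference was tested.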

How the results depend on the processing

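The number of members called was 1 in TNF against control, and 2 with a filter at 5 FPKM (CHUK added). In TNFSG against SG it was 0 with only the groups compared. With TNF averaged it was 2 with a filter at 5 FPKM (TNFRSF1B added, limma adjusted p = 0.0470). With the targeted transfection averaged it was 0 after median-ratio scaling and 0 without the trend, and 0 to 1 when 1 library was left out. The causes were not tested. A stricter filter adjusts over fewer loci and also refits the trend on them, and these parts were not separated. Of 1440 recomputed member results 1407 kept their call and, where that was short of the threshold, also stayed within their error. Results past the threshold were judged by call and sign only. The rise of IKBKB in TNFSG against SG, for example, was as low as 0.62 without 1 library, against 0.73 ± 0.11 (SE). Of the others 19, short of the threshold, moved by more than their error. The threshold was lost by 11 (TNFRSF1B in 10, IKBKB in 1) and passed by 3 (TNFRSF1B in 2, CHUK in 1), and none that was called changed sign. Median-ratio scaling changed the split of all loci called with the targeted transfection averaged to 108 higher and 371 lower, against 195 and 170. Over the alternatives other than leaving a library out, the count of all loci called ran from 172 to 831 in TNF against control, 256 to 843 in TNFSG against SG, 7 to 115 in SG against control, 2 to 97 in TNFSG against TNF, 0 to 12 in the interaction, 1157 to 2104 with TNF averaged and 158 to 938 with the targeted transfection averaged. Without 1 library they ran from 294 to 432, 311 to 594, 10 to 43, 7 to 25, 1 to 6, 978 to 1356 and 132 to 340 in the same order.

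Same-numbered libraries deviated together weakly (18 pairs, correlations from -0.019 to 0.128, median 0.015, 1 over 0.1). Pairs of unlike number ran from -0.105 to 0.058 (36 pairs, median -0.012). For 4 of 12 libraries the best correlation in every other group was with the library of their own number. In all 4 groups at once, replicate 1 was highest in 5.11% and lowest in 5.23% of loci tested. For replicate 2 it was 2.66% and 2.22%, and for replicate 3 2.73% and 2.75%. The numbers were not taken as pairs in the main fit, which thus leaves out whatever same-numbered libraries share. With the replicate number as a block, 2 members were called with TNF averaged (IKBKB, and TNFRSF1B at limma adjusted p = 0.0361). Over all loci that fit called 1212 higher and 892 lower with TNF averaged, against 932 and 509 in the main fit.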

Other observations

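Members differed in how they went with the replicate number, and these values belong to no comparison between groups. TNFRSF1A and TRADD were highest in replicate 1 in all 4 groups, which held for 5.11% of loci tested. IKBKG was highest in replicate 3 in all 4 groups (2.73% of loci), IKBKB was lowest in replicate 3 (2.75%) and TNFRSF1B was lowest in replicate 2 (2.22%).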
